A study of Homo sapiens with 2 samples.

Results

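IRF1 summits that fall inside long terminal repeat (LTR) elements and DNA transposons numbered 213 of the 1986 summits in the deposited list. IRF1 was mapped by chromatin immunoprecipitation and sequencing in NB4, an established line of human acute promyelocytic leukemia that carries the PML-RARA fusion. The study has 2 libraries, 1 from cells given the solvent DMSO and 1 from cells given all-trans retinoic acid (ATRA), each for 4 hours. The list comes from the ATRA library, and the DMSO library was not analysed here, so the values describe where IRF1 was found in treated cells and not what the drug changed. A summit was taken when it lay more than 1000 bp from the nearest transcription start site (TSS) and the authors' annotation placed its base in a repeat of class LTR or DNA. Summits on chromosome 21 below position 10000000 were left out, which removed 5. All 213 were intronic or intergenic, they lay on 23 chromosomes, and they carried 90 repeat names. The read depth behind a summit is not known from the list, and with 1 library there is no replicate check.

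LTRs are the flanking repeats of endogenous retroviruses, the remains of ancient germline infections, and they hold the promoter and enhancer of the virus. Copies of some retroviral families bind interferon-activated factors and act as enhancers of nearby immune genes, with the MER41 group as the best known example. IRF1 recognises the interferon-stimulated response element (ISRE), in which GAAA occurs in tandem. DNA transposons of the Tigger and hAT families moved by excision and reinsertion and are inactive remains in the human genome.

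For 2 of the members a reference sequence was at hand, because the RefSeq promoter table (GRCh38.p14, 250 bases before to 50 after a start) covers the summit. They are shown because they let a summit in a transposon be set beside the letters under it. The first is a DNA transposon of the hAT-Ac family, OldhAT1, with a score of 25.4. It is printed from chr3:134057734-134057854, minus strand, with the summit at base 61. The other is a retroviral LTR of the ERV1 family, MER57F, with a score of 21.7. It is printed from chr22:50539699-50539819, plus strand, with the summit also at base 61. Capitals mark a match to the core of the ISRE on either strand, written GAAANNGAAA or TTTCNNTTTC.
OldhAT1: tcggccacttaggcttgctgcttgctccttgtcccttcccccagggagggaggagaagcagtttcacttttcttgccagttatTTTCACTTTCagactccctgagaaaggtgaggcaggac
MER57F: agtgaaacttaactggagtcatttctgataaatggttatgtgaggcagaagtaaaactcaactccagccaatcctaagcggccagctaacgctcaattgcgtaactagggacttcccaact

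The bases printed around the OldhAT1 summit held an ISRE core, TTTCACTTTC, which began 23 bases and ended 32 bases beyond the summit. A further match, TTTCCATTTC, lay in the same promoter window but outside the bases shown, and ended at -88 from the summit. The MER57F window held no such match, which says only that these letters are not in it. Both windows held a CCAAT box, the motif of the factor NF-Y, as did 34.6% of all promoter windows, and both held the retinoid receptor half-site AGGTCA, as did 13.8%. The ISRE core was present in 1255 of all 35116 promoter windows of this length (3.57%). Of the 302 windows that held any IRF1 summit, 117 had it (38.7%, 95% Wilson interval 33.4 to 44.3). The ETS-IRF composite, GGAANNGAAA, which can overlap the ISRE core, was in neither member's window and in 2.82% of all windows. A match is a description of letters and not a binding site. The annotation places only the summit base in a repeat, so whether these matches lie inside the repeat is not known. By the RefSeq table the OldhAT1 summit lay at -146 from the start of the non-coding RNA gene LINC02000, whereas the authors' annotation put it 27718 bp from SLCO2A1. The MER57F summit lay at -110 from the start of LOC102724608, and by the authors' annotation 7180 bp from CIMAP1B.

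Among families, ERV1 held 96 of the 213 summits (45.1%, 95% Wilson interval 38.5 to 51.8) under 27 names. Counted once per chromosome on which it had a summit, ERV1 made up 24.7% of the family and chromosome pairs, with 21 chromosomes beside 20 for ERVL-MaLR. This unit caps every family at 23 chromosomes, so a family with many summits per chromosome counts for less by construction. ERV1 comprises gammaretrovirus-like elements. The ERVL-MaLR family, with the LTR elements named MLT1, MST and THE1, held 53 (24.9%, 19.6 to 31.1) under 25 names. ERVL held 23, the Tigger family TcMar-Tigger 17, ERVK, the betaretrovirus-like group, 13, and hAT-Charlie 6. The 5 others had 1 summit each, namely Gypsy, Gypsy?, hAT-Blackjack, hAT-Ac and hAT-Tip100. By class, 187 summits were in LTR elements and 26 in DNA transposons. Internal parts of retroviruses, with names ending in -int, held 33, and LTRs proper 154. How many copies of each name the genome holds was not used, so these counts are not rates per copy. No test was run across summits of 1 library, and the intervals cover counting error only.

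**Figure D1:**
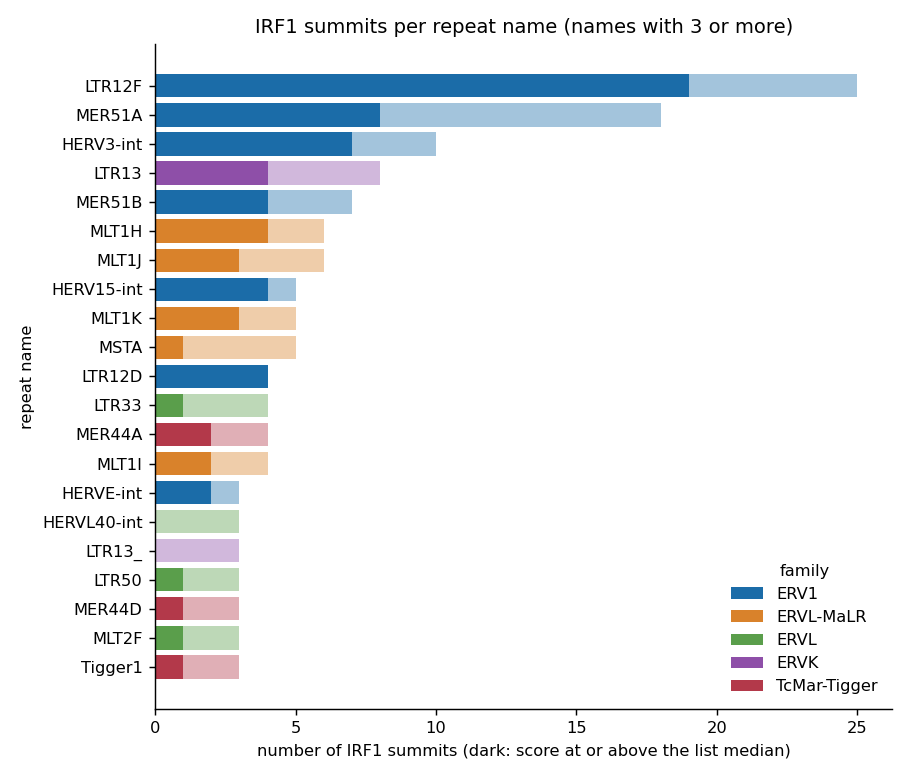
Number of IRF1 summits per repeat name, for names with 3 or more, coloured by family. The dark part of each bar counts summits with a score at or above the median of the whole list. LTR12F has 25 summits, 19 of them in the dark part, and MER51A has 18, with 8.

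The counts were concentrated in a few names. There were 10 names with 5 or more summits, and together they held 95 of the 213. A further 23 names had 2 to 4 summits, 61 in all, and 57 names had a single summit. LTR12F, an LTR of the HERV9 group of primate retroviruses, had 25 summits, MER51A 18, HERV3-int, the internal part of HERV3, 10, and the ERVK repeat LTR13 8. MER51B, a relative of MER51A, had 7. MLT1H and MLT1J had 6 each, and HERV15-int, MLT1K and MSTA had 5 each. Close relatives added to these names. The LTR12 names together held 30 summits (LTR12D 4, LTR12E 1), the MER51 names 25 and the LTR13 names 11. MER41, the group best known for interferon-responsive enhancers, held 2, namely MER41C with a score of 41.3 and MER41A with 17.2, at 100.7 kb and 598 kb from a TSS. Copies of 1 name can share sequence, to a degree that was not analysed here. How reads that match several copies were placed is not given in the sources used here.

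The authors' peak score has no stated scale and is used only to rank summits within this list. Scores of the 213 ran from 10.1 to 217, with a median of 27.0 (95% order-statistic interval 23.9 to 29.6) and quartiles of 19.99 and 48.7. The medians were 25.2 for the 193 summits in LINE and SINE repeats, and 24.5 for the 773 intronic and intergenic summits outside repeats and CpG islands. The interval of the LINE and SINE median, 22.1 to 26.8, and that of the summits outside repeats, 22.7 to 25.8, both overlap the interval of the LTR and DNA summits. Of the 213, 117 scored at or above the median of the whole list (54.9%, Wilson interval 48.2 to 61.5), where the share over all 1986 summits was 50.3% with ties. Among the 100 highest scores of the list were 10 of them (4.69%, 2.57 to 8.43), beside 5.04% of all summits. Over the 1346 summits more than 1 kb from a TSS, outside the chromosome 21 region, the shares were 50.8% and 3.79%. Both shares of the 213 were near these backgrounds. The share among the 100 highest was 1.55% (0.53 to 4.47) in LINE and SINE repeats and 3.23% (2.2 to 4.73) outside repeats. Their intervals overlap that of the 213. LTR and DNA classes had nearly the same median, 27.0 and 27.4.

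**Figure D2:**
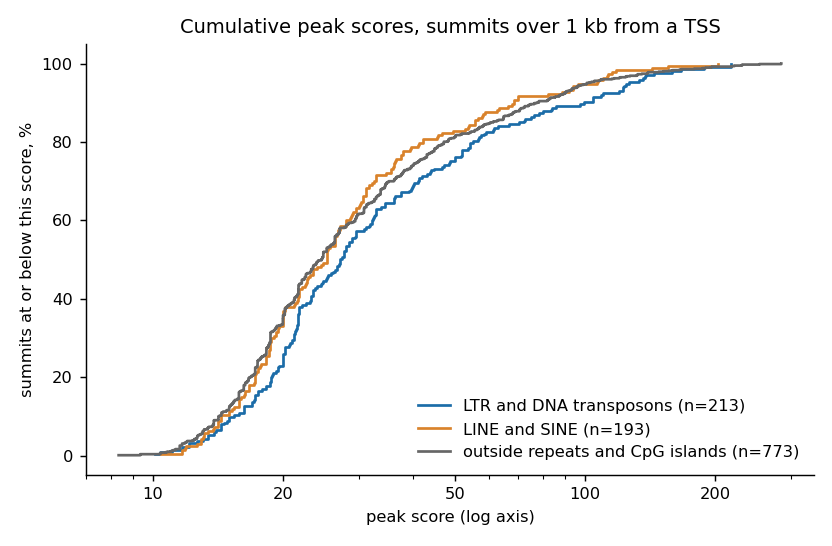
Cumulative distribution of the authors' peak score (log axis) for summits over 1 kb from a TSS, in percent of each class. The median is 27.0 for LTR and DNA transposons, 25.2 for LINE and SINE repeats and 24.5 outside repeats, and the curves span much the same range.

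Median scores of the larger families ran from 20.2 in ERVL to 31.4 in ERV1. ERV1 summits had a median of 31.4 (interval 26.6 to 36.2), and 60 of 96 were at or above the list median (62.5%, 52.5 to 71.5). ERVL-MaLR had a median of 25.3 (21.7 to 32.8), TcMar-Tigger 27.7 (20.02 to 70.5), ERVK 21.5 (15.0 to 39.96) and ERVL 20.2 (17.2 to 32.3). The ERV1 interval overlaps those of these 4 families. Within ERV1 the LTR12F summits ran from 17.5 through a median of 41.3 (28.0 to 76.1) to 189, and 19 of 25 were at or above the list median. MER51A summits ran from 11.7 through 22.7 (18.7 to 41.0) to 133, with 8 of 18. The LTR12F median was the higher of the 2, but the intervals overlap from 28.0 to 41.0.

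HERV3-int ran from 13.4 through 29.6 to 126, and LTR13 from 12.7 through 24.98 to 104. MER51B ran from 13.0 through 31.2 to 51.9, and MLT1H from 19.6 through 48.4 to 217. Each of these 4 names held summits on both sides of the list median. The 5 HERV15-int summits scored 166, 51.9, 44.8, 27.3 and 18.3. The 5 MLT1K summits scored 48.7, 43.0, 26.1, 21.2 and 19.5, and the 5 MSTA summits 28.9, 23.2, 19.99, 18.7 and 14.4. MSTA had the lowest median of the 10 names with 5 or more summits, and 1 of its 5 summits was at or above the list median. All 4 LTR12D summits were above it, at 56.7, 54.1, 32.5 and 28.0.

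**Figure D3:**
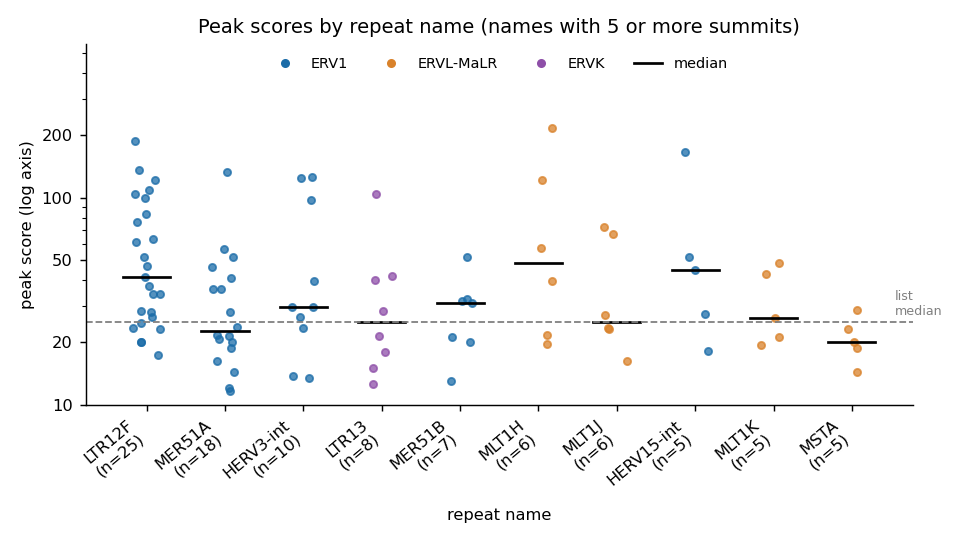
Peak score (log axis) of every summit in the names with 5 or more, coloured by family, with the median of each name as a black line and the list median dashed. LTR12F reaches from 17.5 to 189 around a median of 41.3, and the MSTA points lie between 14.4 and 28.9.

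The 20 highest scores lay in 14 names, 5 of which had no other summit. ERV1 held 9 of them, ERVL-MaLR 7, TcMar-Tigger 2, ERVL 1 and ERVK 1, and 15 lay more than 10 kb from a TSS. The ERVL-MaLR family held the top place, with equal scores of 217 in an MLT1H copy at chromosome 4 position 17385629 and an MLT1A1 copy at chromosome 1 position 199932202. The former was 126.6 kb from QDPR, which encodes a pteridine reductase, and the latter 95.4 kb upstream of NR5A2, which encodes a nuclear receptor. The LTR12F copy at chromosome 5 position 18746230 followed, 1140042 bp from CDH18, a cadherin gene. A HERV15-int copy scored 166 in intron 1 of 3 of KLRK1-AS1, antisense to the gene of the activating natural killer receptor NKG2D. This summit was at chromosome 12 position 10365101, 1332 bp from the TSS, and another summit, in a simple repeat with a score of 27.8, lay 407 bp away.

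MLT1I copies scored 159 at 43.6 kb from PTGR3, a prostaglandin reductase gene, and 145 at 34.4 kb from TMEM230. The Tigger18a copy of intron 1 of 7 of LRMDA scored 138 at -10321 bp from the TSS and was the highest of the DNA transposons. An LTR33C copy 187.8 kb from LRRIQ3 scored 138 as well. Next came retroviral copies whose nearest genes were MRPS24, a mitochondrial ribosomal protein gene (LTR12F, 136), C15orf39 (MER51A, 133), ADCK2 (HERV3-int, 126) and LINC00661 (HERV3-int, 124). An MLT1L copy in intron 2 of 25 of PARP8, an ADP-ribosyltransferase gene, scored 123. A score of 122 was shared by an LTR12F copy in intron 19 of 26 of ERBB4, a receptor tyrosine kinase gene, for which MIR548F2 is the nearest start, and an MLT1H copy 308.5 kb from MN1, a transcriptional coregulator gene. The remaining places went to copies with the nearest genes ZNF32-AS3 (MSTD, 120.0), FTH1, which encodes ferritin heavy chain (MER4B-int, 110.0), the pseudogene MSTO2P (LTR12F, 109), GTF2I (MER44A, 105) and NUB1 (LTR13, 104). GTF2I has near-identical copies nearby on chromosome 7, so the placement of reads there is uncertain.

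Among the 50 top-ranked members, 8 had a gene start less than 10 kb away, beside 39 of all 213 members (18.3%). Of the 8, 5 belong to the 20 just described. The other 3 were an LTR12F copy (99.4) at -8472 bp from LINC01020, a HERV3-int copy (97.4) at -9176 bp from SLC15A1, the gene of the peptide transporter PEPT1, and an MLT1J copy (72.5) at -2822 bp from HTATIP2. These 8 summits had 8 different repeat names.

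Distance from genes varied widely between the names. Over all 213 the median distance to the nearest TSS was 34.9 kb, with 39 summits from 1 to 10 kb away, 114 from 10 to 100 kb and 60 beyond 100 kb (28.2%, Wilson interval 22.6 to 34.6). The share beyond 100 kb was 17.1% (12.4 to 23.0) for LINE and SINE summits and 15.3% (12.9 to 18) outside repeats. By family it was 41.5% (29.3 to 54.9) in ERVL-MaLR, 30.2% (21.9 to 40) in ERV1 and 17.6% (6.19 to 41.0) in TcMar-Tigger. In ERVL it was 17.4% (6.98 to 37.1) and in ERVK 7.69% (1.37 to 33.3). The summits nearest the limit of the rule were a MER51B copy at -1061 bp from MPV17L2, a MER51A copy at -1151 bp from GTF2B and an LTR13 copy at -1174 bp from ANKRD53. No LTR or DNA summit was annotated within 1 kb. The annotation gives a summit a single label, and near a start this can be a promoter label in place of a repeat name. The absence of repeat names there therefore does not show that repeats close to starts lacked summits. By the starts of the RefSeq table, 5 of the 205 summits outside chromosome 8 lay within 1 kb of a start, among them HERVL40-int 93 bp from LOC105371467 and HERVL18-int 264 bp from ZSCAN31. Of these 205, 43 were beyond 100 kb by RefSeq starts and 56 by the authors' annotation. The compared classes were not recounted from RefSeq starts, so their shares can be set only beside those by the authors' annotation.

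LTR12F had the largest median distance of the ERV1 names with 5 or more summits, and LTR13 the smallest of all 10 such names. For LTR12F the median distance was 168.6 kb, with 15 of 25 summits beyond 100 kb and 2 within 10 kb, CFAP91 and LINC01020. By RefSeq starts the median of the 24 outside chromosome 8 was 84.1 kb, and 12 of them were beyond 100 kb. For MER51A the median was 23.1 kb, with 1 of 18 beyond 100 kb. For LTR13 it was 8.56 kb, with 5 of 8 within 10 kb, where 2 summits in NUB1, 207 bp apart, are counted separately. Beyond 100 kb there were 0 of 8, which by the limit of 3 counts allows up to 37.5%. The 3 summits of its relative LTR13_ lay 26.7 kb or farther from a TSS. Together the LTR13 names had a median of 18.4 kb, with 1 of 11 summits beyond 100 kb. The MLT1H median was 113 kb and the MSTA median 269 kb. The ranges of LTR12F and LTR13 overlap from 1.49 to 48.3 kb.

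**Figure D4:**
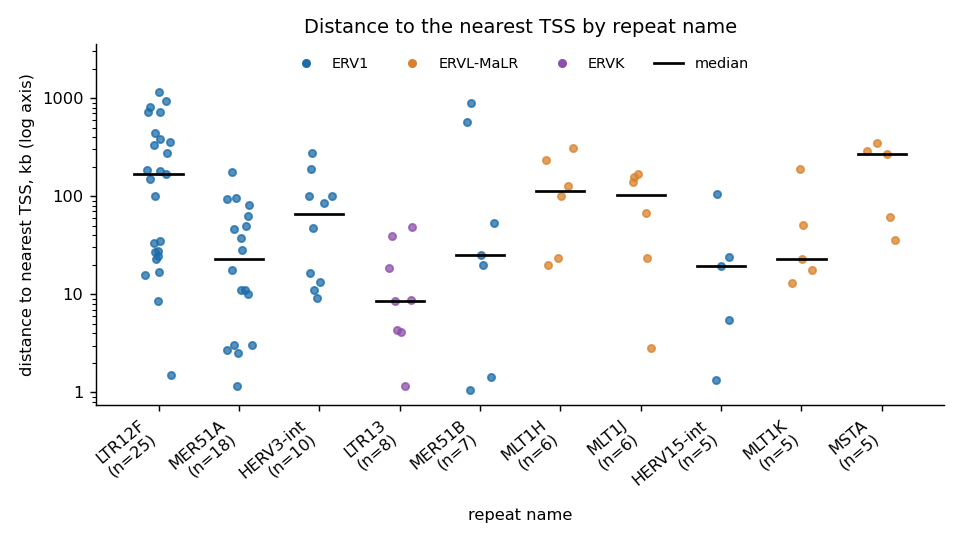
Distance to the nearest TSS in kb (log axis) for every summit in the names with 5 or more, with medians as black lines. LTR12F has 15 of 25 summits above 100 kb, and all 8 LTR13 summits lie below it.

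Introns held 60 of the 213 summits (28.2%, Wilson interval 22.6 to 34.6), and the rest were intergenic. Over all 1273 intronic and intergenic summits more than 1 kb from a TSS, 45.4% were intronic. The share was 48.2% (41.2 to 55.2) in LINE and SINE repeats and 49.3% (45.8 to 52.8) outside repeats, and both of these intervals lie above that of the 213. Where copies of each class lie across the genome was not used here, for introns or for the distances above. Whether these differences go beyond the places of the copies was not tested. The intervals of LTR elements and DNA transposons did not overlap, with 47 of 187 (25.1%, 19.5 to 31.8) against 13 of 26 (50%, 32.1 to 67.9). ERV1 had the lowest share among the larger families, 19 of 96 (19.8%, 13.1 to 28.9), and TcMar-Tigger had 10 of 17 (58.8%, 36.0 to 78.4). In LTR12F 3 of 25 were intronic, in the genes ERBB4, GLDN and GPR158. The host of an intronic summit was its nearest gene in 45 of 60 cases, and 20 lay in the first intron.

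**Figure D5:**
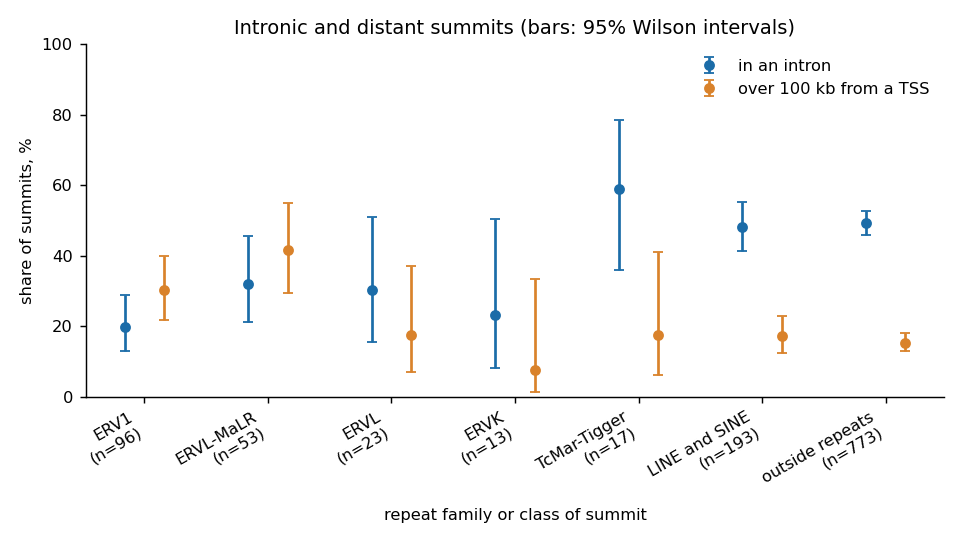
Share of summits in an intron (blue) and share more than 100 kb from a TSS (orange), in percent with 95% Wilson intervals, by family and for the compared classes. The intronic share is 19.8% in ERV1 and 58.8% in TcMar-Tigger, beside 48.2% in LINE and SINE repeats and 49.3% outside repeats.

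The nearest gene was protein-coding for 138 of the 213 summits (64.8%, 58.2 to 70.9), a non-coding RNA for 63 and a pseudogene for 11. For summits in LINE and SINE repeats the coding share was 77.2% (70.8 to 82.6) and outside repeats 77.7% (74.7 to 80.5). Here too the genomic places of all copies of each class were not used. LTR12F was at 8 of 25 and LTR13 at 7 of 8, with both NUB1 summits counted. The 213 summits had 203 different nearest genes, and 9 genes were nearest to more than 1.

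Genes of the interferon and retinoid pathways were near few of these summits. Of 177 listed genes (interferon-stimulated, MHC, interferon signalling, myeloid and retinoid lists), 8 had an LTR or DNA summit within 100 kb of their span. Counted by summit this was 7 of 213 (3.29%, 1.60 to 6.63), beside 4.31% of all summits more than 1 kb from a TSS, and so not above the background. The interferon-stimulated list had 4 of 75 genes, the MHC list 1 of 25, the signalling list 1 of 26 and the retinoid list 3 of 22, where PML belongs to both the first and the last. The myeloid list had 0 of 30, and 0 of 213 summits were near its genes, which allows a share of up to 1.41%.

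PML, the nuclear body scaffold fused to RARA in these cells, held a MER51A copy with a score of 36.2 in intron 1 of 7, 2546 bp from its TSS. A promoter summit with a score of 77.2 lay 2421 bp from it. NMI, an interferon-induced partner of STAT proteins, held an MLT1D copy (30.8) in intron 1 of 7, 1595 bp from its TSS. Here 2 more summits, with scores of 19.2 and 20.2, lay 1102 and 1377 bp away. At both genes the repeat summit therefore stood beside a summit outside the repeat. TNFAIP2, a gene responsive to tumour necrosis factor and retinoic acid, had a MER51A copy (20.2) 11112 bp upstream, with a summit outside repeats (14.2) 3951 bp from it.

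Single LTR13 copies lay 16.8 kb from TRIM69 and 66.5 kb from B2M, the light chain of MHC class I (28.4, the same summit for both genes), and 99.5 kb from TRIM21, a cytosolic antibody receptor gene (17.9). An LTR50 copy (19.98) lay 51.8 kb from IRF3, a factor of interferon induction. An LTR12F copy (26.6) lay 90.1 kb from ZBTB16, a fusion partner of RARA in a rare variant of this leukemia. These 5 gene distances are measured to the gene span and not to the TSS. Outside the lists, and named after their values were seen, an LTR13 copy (39.96) lay 4101 bp upstream of CARD8, an inflammasome sensor gene. An MLT1K copy (48.7) lay 22.9 kb from PRF1, which encodes perforin.

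Some summits came in pairs within 1 repeat name. Among the 213, 19 had another summit of the list within 10 kb (8.92%, 5.78 to 13.5), beside 9.81% of all summits more than 1 kb from a TSS. Of these 19, 7 had a summit outside the LTR and DNA set, and there were 7 pairs inside it. In 5 of the 7 pairs both summits had the same name, and 4 of these were less than 400 bp apart. NUB1, which encodes an interferon-inducible regulator of the ubiquitin-like protein NEDD8, held LTR13 summits of 104 and 12.7 in intron 3 of 14, 207 bp apart. LINC01232 held MER51A summits of 21.6 and 18.7, 355 bp apart. HERV3-int summits of 26.6 and 13.8 lay 380 bp apart in intron 9 of 18 of TRIM24, a coregulator of nuclear receptors, although SVOPL is the nearest start. MLT1C summits of 27.7 and 25.3 lay 242 bp apart near CES1P1, and an intergenic summit outside repeats (12.7) lay 320 bp from the latter.

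The wider pairs were MER51A copies 49.3 and 45.9 kb from LINC02402, with scores of 51.5 and 27.9 and 3454 bp apart, and 2 pairs of LTR12F with LTR12D. With IGSF11-AS1 as the nearest gene, at 91.1 kb and 100.6 kb, the LTR12D copy scored 56.7 and the LTR12F copy 28.4, 9512 bp apart. On chromosome 8 the scores were 28.0 and 19.99, 4880 bp apart. So 2 of the 4 LTR12D summits lay within 10 kb of an LTR12F summit. Summits farther apart also shared a nearest gene. For CDH18 these were an LTR13_ copy (22.1) at 1187.8 kb and the LTR12F copy (189) at 1140.0 kb, and for GNPDA2 an MSTA copy (19.99) at 346.5 kb and an MLT1F2 copy (21.7) at 624.0 kb. None of the 26 DNA transposon summits had another summit within 10 kb, which allows up to 11.5%.

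The 26 DNA transposon summits were spread over 15 chromosomes. Apart from LRMDA and GTF2I, the genes named here were chosen after their values were seen. TcMar-Tigger scores ran from 10.4 through 27.7 to 138, and those of the 9 hAT summits from 16.9 through 25.4 to 59.1. The MER44 names, short relatives of Tigger, held 9 of the 26, and the highest of these was the MER44A copy 7474 bp upstream of GTF2I. Another MER44A copy (75.1) lay in intron 6 of 24 of TENM2. Tigger3b (83.8) lay 113 kb from MANEA, and Tigger1 (70.5) lay in intron 2 of 31 of CLTCL1. Among hAT elements the highest were Charlie1a in intron 1 of 12 of DAW1 (59.1) and MER5A in intron 2 of 6 of LINC00877 (58.5). The 5 highest scores among DNA transposons were all TcMar-Tigger, and below them the scores of the 2 groups overlapped down to 16.9.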

How the data were processed

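The authors aligned reads with Bowtie2 2.2.9 and called summits with MACS 1.4.2 on hg38, per the submitters' processing notes. Summits were annotated with HOMER, per the file headers. The deposited score of each summit has no stated scale, and the deposited distances are in bp. Which background served for calling is not given in the sources used here. Each group held 1 library, so no test between groups was made.

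Members and gene lists were chosen with earlier results of these data known. Summits were selected and counted with Python 3.11.15, pandas 2.3.3, numpy 2.4.6 and scipy 1.17.1, and plotted with matplotlib 3.10.9. Counting was tested on simulated data. Shares have 95% Wilson intervals and medians 95% order-statistic intervals, and both cover counting error only. A count of 0 allows up to 3 counts. Nearest genes of all 213 members were matched by gene ID to the RefSeq table (GRCh38.p14). Named genes were those nearest the 20 highest members, nearest those of the 50 highest within 10 kb of a TSS, nearest 2 or more members, or on a list, and named repeats were those with 5 or more members and MER41. Hosts, partners and other genes were chosen after their values were seen. Motifs at all members and likeness between copies were not analysed here. Nearest genes of members on chromosome 8 are not reported here. Alternatives changed the score minimum, distance limit, merging and unit of counting.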

Additional observations from a re-analysis of the deposited data

Results flagged for a closer look

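The region of chromosome 21 that the rule left out, below position 10000000, held 4 HERV15-int summits, outside the 213 summits described above. They remain part of the 1986 summits behind the list median and the shares over the whole list. Their scores were 52.1, 44.8, 42.5 and 27.0, within the range of the 5 HERV15-int summits elsewhere, from 18.3 to 166. A Tigger19b summit with a score of 13.6 was left out with them. The region held 140 of the 1986 summits. No control level was analysed here for these positions.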

How the results depend on the processing

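Of 63 alternative values over 12 results, 54 stayed within the limits and 9 did not. The limits were the interval of the main value for shares and medians, and a fixed ratio to the main value for counts. Taking only scores at or above the list median left 117 summits with a median score of 44.1, MER51A with 8 and LTR13 and MER51B with 4 each. Taking only distances above 10 kb raised the median distance to 59.4 kb and left LTR13 with 3 summits and listed nearest genes with 2. The counts fell, and the median score and median distance rose, because these alternatives leave out low scores or short distances by construction. Counting each family once per chromosome gave ERV1 24.7% of family and chromosome pairs, a unit that by construction lowers the share of a family with many summits per chromosome. Having no distance limit changed no result, since no summit within 1 kb carried an LTR or DNA label. Merging summits under 200 bp apart left 213, since no pair was that close, and the NUB1 summits 207 bp apart stayed separate. Both of these settings returned the same 213 summits, so their values could not move and add nothing to the tally of stable values. Including the chromosome 21 region, chosen after seeing the data, gave 218 summits with ERV1 at 45.9%. No class was written with a question mark. No paired analysis was possible because a single library stood for each condition, and no replicate could be left out. Alternatives for motif windows and copy likeness were not run, since no genome sequence beyond promoter windows was used here. Read depth per summit is unknown.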
